A study of Rattus norvegicus with 6 samples.

Results

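Antioxidant and endoplasmic reticulum (ER) stress genes were examined in rat bone marrow mesenchymal stem cells whose S100A16 had been silenced during osteogenic differentiation. Mesenchymal stem cells are adherent marrow cells that can form bone, and S100A16 is a calcium-binding protein of the S100 family. The selection listed 8 rat Ensembl identifiers as Nqo1, Hmox1, Sod1, Sod2, Cat, Hspa5, Ddit3 and Atf3, and all 8 were among the 30560 identifiers of the deposited table. The table gives no gene names, and the RefSeq table used here pairs 0 identifiers with a name, so each pairing was checked only by the gene length implied by the values. Of the 8, 7 had a length of at least the coding sequence of the protein and at most the span of the RefSeq gene: 4 antioxidant genes (Nqo1, Hmox1, Sod1, Sod2) and 3 ER stress genes (Hspa5, Ddit3, Atf3). The identifier listed as Cat, ENSRNOG00000008364, had an implied length of 927 nt, which is shorter than the coding sequence of catalase. It is therefore described by its identifier only. A length that fits does not by itself prove a name.

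The 3 siS100A16 samples were transfected with small interfering RNA against S100A16 and carry the genotype label for silenced S100A16, and the 3 siNC samples received scramble RNA and are labelled as controls. Both groups were primary rat cells at passages 3 to 5 under osteogenic differentiation. How long differentiation lasted, the siRNA sequence, and whether samples of a group came from separate animals or cultures were not stated, so the p-values cover only the variation among these samples, and that may be technical. Neither the silencing of S100A16 nor the markers of the cell type could be checked without gene names. In bulk RNA, a change in the number of cells of a type and a change in RNA per cell cannot be told apart.

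The genes belong to 2 stress responses. In the antioxidant response, the factor NRF2 drives enzymes such as Nqo1, which reduces quinones, and Hmox1, which breaks down haem, while superoxide dismutases turn superoxide into hydrogen peroxide and catalase removes the peroxide. In the unfolded protein response, misfolded proteins in the ER raise chaperones such as Hspa5 (BiP), and the PERK branch raises the transcription factors Atf3 and Ddit3 (CHOP), the last of which is linked to cell death. Bone-forming cells secrete much collagen, which makes the ER folding machinery part of their normal work.

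After S100A16 siRNA, 3 of the 7 named genes rose and 0 fell. They were the cytosolic superoxide dismutase Sod1, the ER chaperone Hspa5 and the quinone reductase Nqo1. In 16 alternative fits, which changed the scaling, filter, model or samples, Sod1 and Hspa5 always passed the test, while Nqo1 failed it in 8. Among all 12336 genes tested, 16.4% were called higher and 4.27% lower (limma on log2(FPKM + 1), Benjamini-Hochberg adjusted p under 0.05). FPKM is the reads of a gene divided by its length and by the reads counted in the library, and fold changes on the log2(FPKM + 1) scale understate the change of low genes. With values as deposited the log2 fold change was above 0 for all 7 genes (6 with median of ratios, 5 with the length trend removed and 4 with quantile normalization), with a median of 0.67, against 0.17 for the whole set of tested genes. The median of the 7 was 0.43 with median of ratios, 0.41 with the length trend removed and 0.40 without siS100A16 replicate 1. The fold changes of Hmox1, Sod2, Ddit3 and Atf3 did not pass the test. The siS100A16 and siNC values did not overlap for 4 of the 7 genes, all higher in siS100A16, a pattern found in 29.3% of tested genes. These comparisons pool all levels, whereas every named gene but Atf3 had a level above that of at least 89.4% of tested genes. The share called higher was 34.9% at 20 to 100 FPKM, 53.1% at 100 to 1000 FPKM and 32.1% above 1000 FPKM. The median log2 fold changes of these classes were 0.43, 0.59 and 0.10. A rise of the 7 genes beyond that of genes of like level was not tested.

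The values depend on scaling and on level. Libraries held 5387539 to 6937001 reads counted to genes in siS100A16 and 7135826 to 8059327 in siNC, and genes above 0 numbered 15778 to 16609 in siS100A16 and 17895 to 18038 in siNC (exact two-sided permutation p = 0.1 each, the smallest that 3 samples against 3 allow). With median-of-ratios scaling the median over the transcriptome was -0.03, since this scaling lowers siS100A16 values relative to siNC, and 7.25% of genes were called higher. Of the 7 named genes, 2 were then called, Sod1 and Hspa5. With this scaling 14.8% of genes at 20 to 100 FPKM, the class of Sod1, were called higher. At 100 to 1000 FPKM, the class of Hspa5, the share was 29.3%. The part that depth, detection and scaling play in the fold changes was not tested beyond these values.

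**Figure D1:**
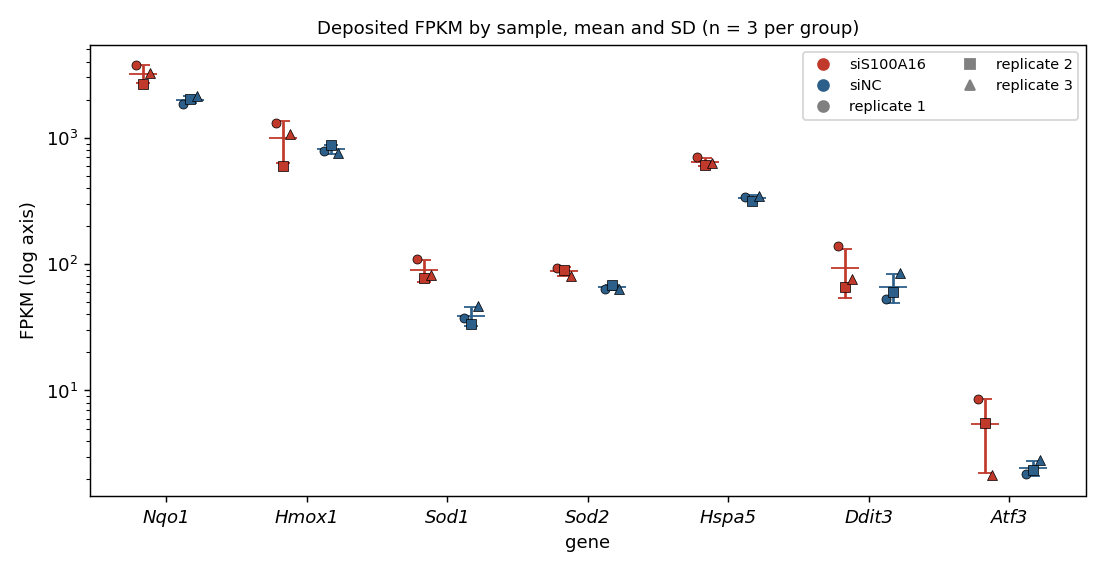
FPKM of the 7 named genes in each sample on a log axis, siS100A16 (red) left of siNC (blue), with marker shape for the replicate number, horizontal bars for means and error bars for SD (n = 3 per group). Nqo1, Sod1, Sod2 and Hspa5 show no overlap between groups, whereas Hmox1, Ddit3 and Atf3 overlap.

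The stretches before the RefSeq start sites of the 3 genes that rose are shown because elements of these stress responses are known to lie in promoters. They come from the RefSeq table of build GRCr8, run 5′ to 3′ on the strand of the gene, and cover the 250 bases before the start on which the table's window is set. For Sod1 that start lies inside the RefSeq gene span, so the last 81 bases of its stretch, with the match marked there, fall within the gene. Capitals mark matches, on either strand, to any of 5 motifs: the ER stress response element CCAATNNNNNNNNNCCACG, the antioxidant response element core TGACNNNGC, the cyclic AMP response element TGACGTCA, the C/EBP-ATF response element core TGATGCAA, and the CCAAT box CCAAT, which also forms the first bases of the ER stress response element.
Hspa5 (chr3:38452766-38453015, plus strand): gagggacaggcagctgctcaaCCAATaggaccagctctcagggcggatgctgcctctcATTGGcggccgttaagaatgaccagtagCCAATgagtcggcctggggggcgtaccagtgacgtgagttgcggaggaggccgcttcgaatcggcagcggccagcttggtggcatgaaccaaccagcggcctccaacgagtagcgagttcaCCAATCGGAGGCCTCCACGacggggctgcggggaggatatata
Sod1 (chr11:42942573-42942822, plus strand): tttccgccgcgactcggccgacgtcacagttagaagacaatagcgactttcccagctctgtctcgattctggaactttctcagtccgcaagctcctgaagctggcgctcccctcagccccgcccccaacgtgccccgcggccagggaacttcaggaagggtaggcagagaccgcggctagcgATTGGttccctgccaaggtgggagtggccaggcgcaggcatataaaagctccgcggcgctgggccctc
Nqo1 (chr19:52220268-52220517, minus strand): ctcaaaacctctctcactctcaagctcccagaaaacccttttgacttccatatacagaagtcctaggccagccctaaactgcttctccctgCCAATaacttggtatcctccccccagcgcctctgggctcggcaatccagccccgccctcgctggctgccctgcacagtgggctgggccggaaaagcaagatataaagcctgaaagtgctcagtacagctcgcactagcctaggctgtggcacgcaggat

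The Hspa5 stretch held 1 full ER stress response element, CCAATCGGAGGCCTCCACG, from 43 to 25 bases before the start. The same letters were matched in 0.0657% of the 33469 RefSeq windows of this length, or 22 windows. Hspa5 also held 3 further CCAAT boxes, and Sod1 and Nqo1 held 1 CCAAT box each, a motif matched in 34.0% of windows. Neither Sod1 nor Nqo1 matched the antioxidant core in this stretch, which 10.1% of windows did. Among the other named genes, windows were at hand for Sod2 and Ddit3. Sod2 matched the antioxidant core once, on the minus strand of the window, as GCAGGGTCA from 35 to 27 bases before the start, and Ddit3 matched the CCAAT box once. None of these 5 windows matched the cyclic AMP element, found in 1.59% of windows, or the C/EBP-ATF core, found in 0.693%. A match describes letters and not binding, and elements outside the stretch were not searched.

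Nqo1 (ENSRNOG00000012772) was the most abundant of the named genes in all 6 libraries and rose after S100A16 siRNA. It had 3736, 2673 and 3256 FPKM in siS100A16 replicates 1 to 3, against 1861, 2024 and 2128 FPKM in siNC replicates 1 to 3. The groups did not overlap, and siS100A16 replicate 2 lay closest to the controls. The mean was 3222 ± 532 FPKM in siS100A16 and 2004 ± 134 FPKM in siNC (SD, n = 3 each), from 93695 reads in siS100A16 and 70687 in siNC. Its transcripts took 0.499% ± 0.0824 of the reads counted in siS100A16 and 0.310% ± 0.0208 in siNC (SD, n = 3 each). The log2 fold change was 0.67 (standard error 0.14, adjusted p = 0.0167 by limma). Of the 53 tested genes above 1000 FPKM, the class of Nqo1, 32.1% were called higher, and their median log2 fold change was 0.10. With median-of-ratios scaling Nqo1 had a log2 fold change of 0.43 and was not called (limma adjusted p = 0.0961), nor was it without siS100A16 replicate 1 or 3 or siNC replicate 1 or 2, where the adjusted p lay between 0.0605 and 0.0770.

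Hmox1 (ENSRNOG00000014117), which like Nqo1 is a classical NRF2 target, did not differ between groups beyond the spread of its samples. It had 1319, 595 and 1065 FPKM in siS100A16 replicates 1 to 3, against 792, 878 and 754 FPKM in siNC replicates 1 to 3. Replicates 1 and 3 of siS100A16 lay above every siNC sample and replicate 2 below every one. The mean was 993 ± 367 FPKM in siS100A16 and 808 ± 63.5 FPKM in siNC (SD, n = 3 each), with a log2 fold change of 0.22 (standard error 0.27, adjusted p = 0.596 by limma). The coefficient of variation was 37.0% in siS100A16 and 7.86% in siNC. A single library decided the result: without siS100A16 replicate 2 the log2 fold change was 0.56 and past the test (limma adjusted p = 0.0344), and without siS100A16 replicate 1 it was -0.02 (limma adjusted p = 0.970). The depth of siS100A16 replicate 2, 6384262 reads, lay between those of the other siS100A16 libraries, and it held 5877 Hmox1 reads. The cause of its low Hmox1 value was not tested.

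Sod1 and Sod2 make the superoxide dismutases of the cytosol and of the mitochondrial matrix. Sod1 (ENSRNOG00000002115) had the largest log2 fold change of the 7 genes with values as deposited, while with the length trend removed Hspa5 had the larger value, 0.76 against 0.70. It had 110, 77.4 and 81.4 FPKM in siS100A16 replicates 1 to 3, against 37.4, 33.4 and 46.3 FPKM in siNC replicates 1 to 3. Every siS100A16 sample lay well above every siNC sample. The mean was 89.7 ± 18.0 FPKM in siS100A16 and 39.0 ± 6.63 FPKM in siNC (SD, n = 3 each), from 1960 reads in siS100A16 and 1032 in siNC. The log2 fold change was 1.18 (standard error 0.19, adjusted p = 0.00728 by limma), which exceeded that of 95.8% of tested genes, and its level class, from 20 to 100 FPKM, had a median of 0.43 with 34.9% called higher. Sod1 was called in all 16 alternative fits, with log2 fold changes from 0.70 with the length trend removed to 1.30 without siNC replicate 3.

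Sod2 (ENSRNOG00000019048) had 93.0, 90.3 and 79.8 FPKM in siS100A16 replicates 1 to 3, against 64.0, 68.8 and 63.4 FPKM in siNC replicates 1 to 3. The groups did not overlap, but the difference was smaller than for Sod1 and missed the threshold. The mean was 87.7 ± 6.97 FPKM in siS100A16 and 65.4 ± 2.94 FPKM in siNC (SD, n = 3 each), with a log2 fold change of 0.42 (standard error 0.13, adjusted p = 0.0602 by limma). That is close to the median of 0.43 in its level class. With a minimum mean of 5 FPKM, with limma voom on reads, and without siS100A16 replicate 3 the adjusted p was 0.0453, 0.0436 and 0.0458, while quantile normalization gave a log2 fold change of -0.05. RefSeq lists 1 pseudogene named after Sod2, and the treatment of reads matching both was not stated.

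Ratios of genes within a library do not depend on 1 scaling factor for that library, and 4 pairs were compared with deposited values. They can still depend on a trend with gene length, and Sod1 (1154 nt) is shorter than Sod2 (3881 nt). With that trend removed the log2 fold changes were 0.70 for Sod1 and 0.41 for Sod2, closer together than 1.18 and 0.42 as deposited. Those of Hspa5 (2587 nt) and Ddit3 (803 nt) were 0.76 and -0.05, further apart than 0.95 and 0.44 as deposited. Sod1 over Sod2 was 1.19, 0.857 and 1.02 in siS100A16 replicates 1 to 3, against 0.584, 0.485 and 0.731 in siNC replicates 1 to 3. Thus Sod1 was below Sod2 in every siNC library and near it in siS100A16, with no overlap (difference in log2 ratio 0.77, exact two-sided permutation p = 0.1, adjusted p = 0.2 over the 4 pairs). Nqo1 over Hmox1 was 2.83, 4.49 and 3.06 in siS100A16 replicates 1 to 3, against 2.35, 2.31 and 2.82 in siNC replicates 1 to 3. The groups did not overlap here either, although the lowest siS100A16 ratio was 2.832 and the highest siNC ratio 2.823 (exact two-sided permutation p = 0.1, adjusted p = 0.2). No p under 0.1 is possible with 3 samples against 3.

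**Figure D2:**
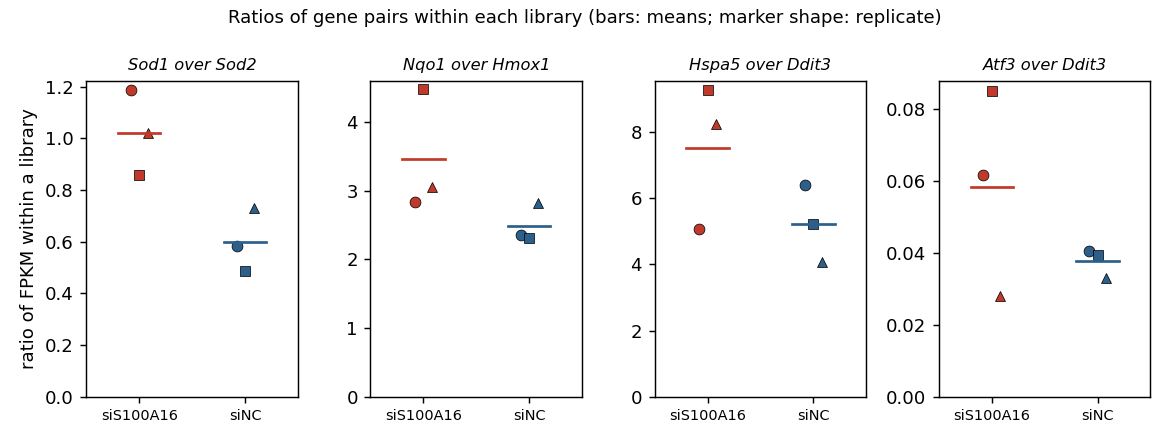
Ratio of FPKM within each library for 4 gene pairs, siS100A16 left of siNC, with marker shape for the replicate number and horizontal bars for group means. Sod1 over Sod2 lies between 0.857 and 1.19 in siS100A16 and between 0.485 and 0.731 in siNC, while Hspa5 over Ddit3 and Atf3 over Ddit3 overlap between groups.

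The identifier ENSRNOG00000008364, which failed the length check for Cat, had 238, 218 and 174 FPKM in siS100A16 replicates 1 to 3, against 120, 134 and 136 FPKM in siNC replicates 1 to 3. The groups did not overlap, and its log2 fold change was 0.67 (standard error 0.15, adjusted p = 0.0195 by limma). It was not called with median-of-ratios scaling, where the log2 fold change was 0.43 (limma adjusted p = 0.0932), nor without siNC replicate 1, 2 or 3, where the limma adjusted p was 0.0749, 0.0821 and 0.0503. With it, 4 of the 8 identifiers were called higher with values as deposited and 2 with median of ratios. Its length is known only up to a whole factor shared by the 6 read numbers, and a factor of 2, which gives 1854 nt, would have passed the check.

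Hspa5 (ENSRNOG00000018294), the main chaperone of the ER lumen and a sensor that holds the stress receptors inactive, showed the smallest spread among the genes that rose. It had 700, 606 and 632 FPKM in siS100A16 replicates 1 to 3, against 342, 314 and 347 FPKM in siNC replicates 1 to 3. All siS100A16 samples lay far above all siNC samples. The mean was 646 ± 48.6 FPKM in siS100A16 and 334 ± 17.7 FPKM in siNC (SD, n = 3 each), from 31367 reads in siS100A16 and 19712 in siNC. The log2 fold change was 0.95, a 1.93-fold level in siS100A16 (standard error 0.12, adjusted p = 0.00461 by limma). The coefficient of variation was 7.53% in siS100A16 and 5.31% in siNC. The median log2 fold change was 0.59 in its level class, from 100 to 1000 FPKM, and 53.1% of these 768 genes were called higher, so the direction was common at this level. Hspa5 was called in all 16 alternative fits, with log2 fold changes from 0.57 with quantile normalization to 0.99 without siS100A16 replicate 2, and with median of ratios it was 0.70 (limma adjusted p = 0.0156).

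The 2 transcription factors among the named genes, both raised by the PERK branch, did not pass the test. Ddit3 (ENSRNOG00000006789), which encodes CHOP, had 138, 65.3 and 76.7 FPKM in siS100A16 replicates 1 to 3, against 53.4, 60.2 and 85.3 FPKM in siNC replicates 1 to 3. Only siS100A16 replicate 1 lay above the siNC range. The mean was 93.5 ± 39.3 FPKM in siS100A16 and 66.3 ± 16.8 FPKM in siNC (SD, n = 3 each), with a log2 fold change of 0.44 (standard error 0.30, adjusted p = 0.330 by limma). That is close to the median of its level class, and without siS100A16 replicate 1 it was 0.12.

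Atf3 (ENSRNOG00000003745), an early stress-induced factor, was the lowest of the named genes in all 6 libraries. It had 8.52, 5.54 and 2.16 FPKM in siS100A16 replicates 1 to 3, against 2.16, 2.37 and 2.82 FPKM in siNC replicates 1 to 3. Replicates 1 and 2 of siS100A16 lay above every siNC sample. Replicate 3, at 2.156 FPKM, lay just below the lowest siNC value, 2.165 FPKM in replicate 1. These values rest on 112, 67 and 22 reads in siS100A16 and 31, 32 and 43 reads in siNC. The mean was 5.41 ± 3.19 FPKM in siS100A16 and 2.45 ± 0.334 FPKM in siNC (SD, n = 3 each), with a log2 fold change of 0.76 (standard error 0.40, adjusted p = 0.216 by limma). Its level class, from 1 to 5 FPKM, had a median of -0.02, with 2.1% called higher. Without siS100A16 replicate 3 it was 1.20 and past the test (limma adjusted p = 0.0348), and without siS100A16 replicate 1 it was 0.40 (limma adjusted p = 0.447).

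Hspa5 over Ddit3 was 5.06, 9.27 and 8.23 in siS100A16 replicates 1 to 3, against 6.40, 5.21 and 4.07 in siNC replicates 1 to 3. The groups overlapped through siS100A16 replicate 1, where Ddit3 was highest (exact two-sided permutation p = 0.3, adjusted p = 0.4). Atf3 over Ddit3 was 0.0616, 0.0848 and 0.0281 in siS100A16 replicates 1 to 3, against 0.0406, 0.0393 and 0.0330 in siNC replicates 1 to 3, and overlapped as well (exact two-sided permutation p = 0.4, adjusted p = 0.4). With 3 samples against 3 this test cannot give a p under 0.1, so it cannot decide whether Hspa5 and Ddit3 changed differently.

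**Figure D3:**
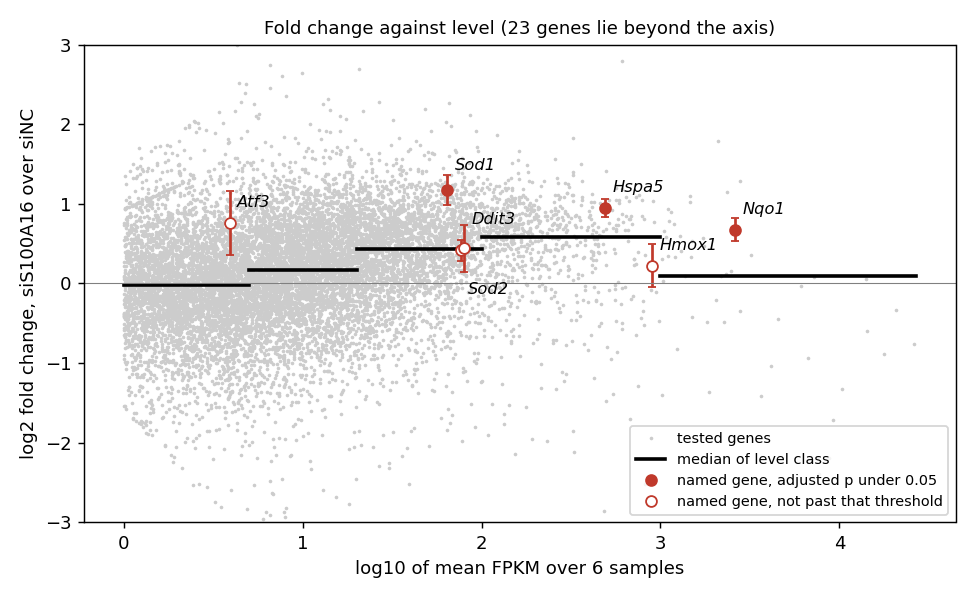
Log2 fold change of siS100A16 over siNC against log10 mean FPKM for the 12336 tested genes (grey), with the 7 named genes in red (filled where called, error bars SE) and the median of each level class as a black line. Sod1, Hspa5, Nqo1 and Atf3 lie above the line of their class, Sod2 and Ddit3 on it and Hmox1 below it, and 23 genes lie beyond the axis.

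The samples of siS100A16 were not alike across the 7 genes. Replicate 1 had the highest siS100A16 value of every named gene. Replicate 2 had the lowest siS100A16 value of Nqo1, Hmox1, Sod1, Hspa5 and Ddit3, and replicate 3 that of Sod2 and Atf3. The standard deviation of each gene was larger in siS100A16 than in siNC. The order of levels was alike in both groups at its ends, with Nqo1 first and Atf3 last in all libraries. Hmox1 came next, followed by Hspa5, in every library except siS100A16 replicate 2, where they changed places. Sod1, Sod2 and Ddit3 shared the middle of the order, with Sod1 the lowest of them in all siNC libraries, and the means of Sod1, Sod2 and Ddit3 in siS100A16, 89.7, 87.7 and 93.5 FPKM, differed by less than the spread of Ddit3.

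**Figure D4:**
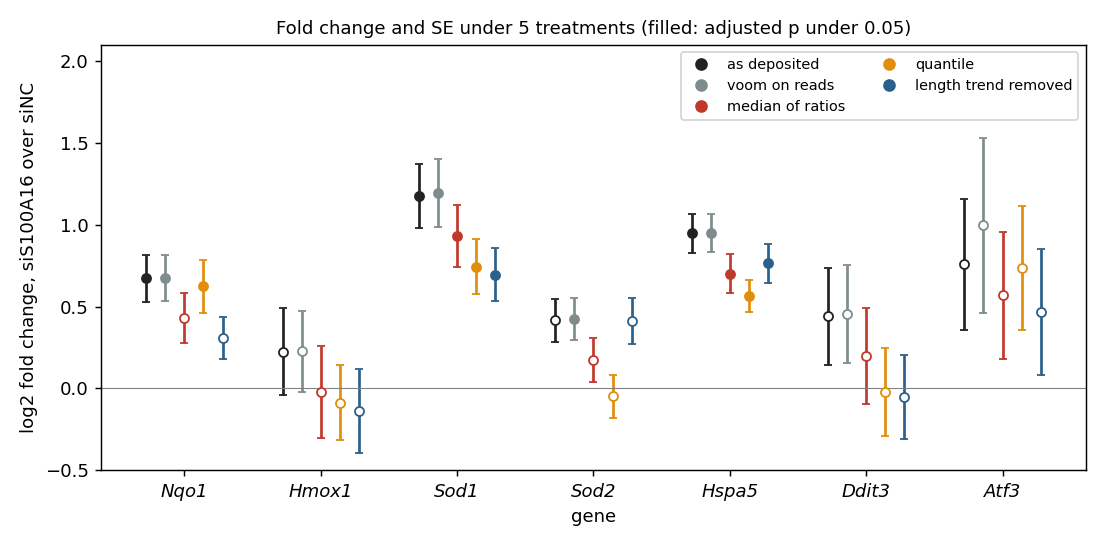
Log2 fold change of siS100A16 over siNC with its SE for the 7 named genes under 5 treatments of the values, with filled points where the adjusted p is under 0.05. Sod1 and Hspa5 are filled throughout, Nqo1 is filled for deposited values, voom and quantile normalization, Hmox1 is below 0 for the last 3 treatments, Sod2 is filled for voom only and below 0 with quantile normalization, and Ddit3 is below 0 with quantile normalization and with the length trend removed.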

How the data were processed

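The authors deposited 1 table of FPKM values for 30560 genes in 6 columns. HISAT2 2.1.0 and DESeq2 1.14.1 appear, with no role stated, in the submitters' processing notes, which also name a mouse build although all identifiers carry the rat prefix. The read counter, strand setting and annotation were not given in the sources used here. Control columns were assigned to siNC, and columns of the experimental arm to the only other labelled group, siS100A16, with numbers as in the titles.

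Ratios of values gave whole reads for all 22692 genes above 0 (relative tolerance 3e-12), which a gene above 0 in only 1 library passes by construction. With 1 whole total per library, 98.4% of lengths were whole, within 0.002 nt, at a mean FPKM of at least 1. The reads and length of any gene are known only up to a whole factor shared by its libraries. That limit holds for every read number given here and for the voom fit. Limma 3.58.1 (R 4.3.3) was fitted to log2(FPKM + 1) with a variance prior following the level, on 12336 genes with a mean of at least 1 FPKM, which all 8 identifiers passed, with the group as the only term. The test was checked on simulated data in which the groups differed by no trend with level or gene length. That check therefore does not cover such trends in these data. Length checks used known protein lengths.

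The members and lists were chosen with earlier results of these data known. The rule for named genes took every member that passed the length check. The lists of further antioxidant, ER stress and cell type genes, and genes of like pattern, needed symbols and were not analysed here.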

Additional observations from a re-analysis of the deposited data

How the results depend on the processing

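Sod1 and Hspa5 kept their direction and their call in all 16 alternatives, from 0.70 to 1.30 and from 0.57 to 0.99 in log2 fold change. Nqo1 lost its call in 8 of the 16. These included no filter (0.67, limma adjusted p = 0.119), median of ratios (0.43), the length trend removed (0.31) and a variance prior without trend (0.67, limma adjusted p = 0.0588). The rest were without siS100A16 replicate 1 or 3 and without siNC replicate 1 or 2. ENSRNOG00000008364 lost its call with median of ratios (0.43), quantile normalization (0.17), the length trend removed (0.17) and no trend (0.67). It also did so without siNC replicate 1, 2 or 3. Sod2 gained a call with a minimum of 5 FPKM (0.42) and limma voom (0.42), and reversed with quantile normalization (-0.049). Hmox1 reversed with median of ratios (-0.021), quantile normalization (-0.087), the length trend removed (-0.14) and without siS100A16 replicate 1 (-0.018), and Ddit3 with quantile normalization (-0.022) and the length trend removed (-0.054), none of them called (adjusted p from 0.755 to 0.970). With single samples left out, log2 fold changes ran from 0.56 to 0.80 for Nqo1, -0.018 to 0.56 for Hmox1, 1.02 to 1.30 for Sod1, 0.37 to 0.48 for Sod2, 0.58 to 0.80 for ENSRNOG00000008364, 0.89 to 0.99 for Hspa5, 0.12 to 0.66 for Ddit3 and 0.40 to 1.20 for Atf3. Calls over all genes (2556) became 1563 with quantile normalization and 1398 with the length trend removed, and ran from 552 to 3182 with single samples left out. Of the 7 named genes, 2 to 4 were called higher and 0 lower in each alternative, while the share of all genes called higher ran from 3.72% (without siNC replicate 2) to 28.9% (minimum of 5 FPKM). At that minimum Atf3 had no value and 4 of 6 were called. With a replicate block, 2246 genes were called, and 3 of the 7. Same-numbered samples deviated from their group means with correlations of -0.03, 0.05 and 0.04, so the numbers were not taken as pairs. The cause of these changes was not tested. Fits with a higher minimum or with a sample left out also held fewer genes or samples, and the part this played was not tested either. Atf3, at 22 to 112 reads a library, had the fewest reads of the 7 genes.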
